A study of Mus musculus with 4 samples.

Results

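Foxp3, Il2ra, Ctla4, Icos, Tnfrsf4, Tnfrsf18 and Ikzf2 are 7 genes by which regulatory T cells are commonly recognised. They were chosen here by their symbols and not by a measured level, though with earlier results of these data known. Each of the 7 had 1 row in each of the 4 deposited matrices, which list 21739 gene symbols between them. The matrices hold unique molecular identifiers (UMIs, tags that count single RNA molecules) per gene and cell from droplet sequencing of skin around full-thickness wounds of C57/BL6j mice aged 6 weeks, taken a week after wounding, with 1 library per mouse. In 2 libraries, titled hucMSC-Exo, the mice had been injected under the skin around the wound with exosomes from human umbilical cord mesenchymal stem cells, and in 2 libraries, titled Control, with phosphate-buffered saline. The labels name no altered allele in either group, all mice had been wounded, and skin without a wound was not analysed here. Groups were read from the sample titles. The matrix names carry letters that would group the libraries differently, which leaves each direction between the groups dependent on those titles. In the labels the tissue is given as sections of the gut, whereas the cell type field and the study's methods name skin.

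Regulatory T cells are CD4+ T cells that restrain other immune cells, and skin holds many of them, where they take part in the control of inflammation and in repair. Their lineage is set by the transcription factor Foxp3, and they depend on interleukin 2, which they bind through a receptor whose high-affinity chain is Il2ra (CD25). The other genes of the set encode a second transcription factor (Ikzf2, Helios), a receptor that takes the B7 ligands away from Cd28 (Ctla4), a costimulatory relative of Cd28 (Icos) and 2 receptors of the tumour necrosis factor family (Tnfrsf4 or OX40, and Tnfrsf18 or GITR). Several of them are also made by other lymphocytes once these are activated, and by group 2 innate lymphoid cells (ILC2), which lack a T cell receptor.

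Cells were assigned to a gate by the UMIs they held, never by one of the 7 genes. The CD4, CD8 and γδ gates took cells with a CD3 UMI and with Cd4, with Cd8a or Cd8b1, or with Trdc respectively. Cells with markers of the other 2 gates were left out. The ILC2 gate took cells with Gata3 and at least 2 of 9 ILC2 genes. It left out cells with a UMI of CD3, Trac, Cd4, Cd8a, Cd8b1, Ncr1, Mcpt8, Cpa3, Ms4a2 or Cma1. Trdc, Trbc1 and Trbc2 did not keep a cell out of the ILC2 gate. Of the 6443 cells that passed the filters, 356 fell into the CD4 gate (37 to 145 per library), 152 into the ILC2 gate (15 to 87), 1672 into the γδ gate (360 to 483) and 160 into the CD8 gate (27 to 56). Trac, the constant part of the α chain, lay between 521 and 585 CPM (UMIs per 1000000) in the CD4 gate, between 473 and 633 CPM in the CD8 gate and between 59.5 and 99.5 CPM in the γδ gate. The constant parts of the β chain separated the gates less: Trbc2 lay between 696 and 999 CPM in the CD4 gate, 468 and 521 CPM in the γδ gate and 183 and 249 CPM in ILC2, and Trbc1 was higher in every γδ library (631 to 807 CPM) than in any CD4 library (285 to 502 CPM), with 293 to 360 CPM in ILC2. A UMI of Trac, Trbc1 or Trbc2 was held by 98.9% of CD4, 98.1% of CD8, 90.8% of γδ and 78.9% of ILC2 gate cells, the last without Trac by the gate's rule, and the part of this in the values below was not tested. Tcrg-C1, a constant part of the γ chain, lay between 658 and 1032 CPM in the γδ gate and at no more than 35.0 CPM in the other gates. The 5 γδ receptor genes checked, Tcrg-C1 included, summed to 1648 to 2052 CPM in the γδ gate and 70.0 to 137 CPM in ILC2. Their sum was 4.02 to 7.51 CPM in CD4 and 7.98 to 48.7 CPM in CD8 cells. Trdv4, a δ chain segment, was 35.0 to 127 CPM in ILC2, and the part of such cells or RNA in the ILC2 values was not tested. Krt14, a keratin of the epidermis, was counted at 249 to 659 CPM over these 4 gates, and its part in the values below was not tested. Levels are UMIs of the gene per 1000000 UMIs summed over the cells of a library and gate, and since the counts come from transcript ends they are compared between gates for 1 gene and not between genes. In such sums, fewer cells that make a gene and less of its RNA per cell cannot be told apart.

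By mean level Foxp3 and Ctla4 were highest in the CD4 gate and next in the CD8 gate, whereas Il2ra was highest in the CD4 gate and next in the γδ gate. Tnfrsf4 and Ikzf2 had the same leading and next gate as Foxp3, and no window of theirs is shown. The stretches of DNA before Foxp3, Ctla4 and Il2ra are shown for comparison. Each runs from 250 bases before the annotated start to 50 bases after it, in RefSeq on GRCm38.p6, plus strand, and letters in capitals mark a match to a short form of the NF-kB motif (GGG and CC with any 5 bases between them) on either strand. The Foxp3 window is chrX:7579426-7579725, the Ctla4 window chr1:60908775-60909074 and the Il2ra window chr2:11642542-11642841.
Foxp3: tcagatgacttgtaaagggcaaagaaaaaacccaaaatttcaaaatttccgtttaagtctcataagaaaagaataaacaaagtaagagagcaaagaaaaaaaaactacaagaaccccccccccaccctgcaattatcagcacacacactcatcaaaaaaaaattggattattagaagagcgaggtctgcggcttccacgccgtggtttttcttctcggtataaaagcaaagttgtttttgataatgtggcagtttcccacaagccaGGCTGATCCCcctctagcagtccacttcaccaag
Ctla4: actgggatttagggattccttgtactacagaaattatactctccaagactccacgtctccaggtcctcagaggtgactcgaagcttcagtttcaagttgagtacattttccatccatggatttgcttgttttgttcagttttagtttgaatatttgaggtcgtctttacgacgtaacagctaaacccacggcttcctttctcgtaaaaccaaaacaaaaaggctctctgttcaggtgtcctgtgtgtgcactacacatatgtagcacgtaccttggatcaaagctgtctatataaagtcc
Il2ra: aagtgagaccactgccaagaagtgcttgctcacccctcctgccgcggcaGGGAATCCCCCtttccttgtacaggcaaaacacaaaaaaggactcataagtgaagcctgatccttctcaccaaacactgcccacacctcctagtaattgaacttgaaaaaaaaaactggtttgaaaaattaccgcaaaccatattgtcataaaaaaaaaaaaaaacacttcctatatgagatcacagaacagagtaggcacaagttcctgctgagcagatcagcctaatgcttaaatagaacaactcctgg

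The Il2ra window held the motif at bases 50 to 59 on both strands and again at bases 51 to 60 on the minus strand, and the Foxp3 window held it at bases 267 to 276 on the minus strand. This short form occurs in 50.8% of the 32851 windows of this length, so a match is common. No match to TTCNNNGAA (a STAT motif, in 8.30% of windows), TGTTTAC (forkhead, 3.65%), TGTGGT (Runx, 16.8%) or TGANTCA (AP-1, 7.81%) was found in these 3 windows on either strand. Windows were on hand for 5 of the 7 genes, and that of Tnfrsf18 held TTCACAGAA, a match to the STAT letters, at bases 152 to 160. Ctla4 and Icos are neighbours on chromosome 1, with 62094 bases between them in the GENCODE annotation of GRCm38, and Cd28 lies 113640 bases before Ctla4. Tnfrsf4 and Tnfrsf18 are neighbours on chromosome 4 with 9551 bases between them.

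Foxp3, which sets the regulatory lineage, was highest in the CD4 gate. Its level there was 130 and 213 CPM in Control and 174 and 215 CPM in hucMSC-Exo, where values of 4 libraries are given by replicate number with Control first. In the CD8 gate it was 39.9, 29.3, 111 and 39.5 CPM in this order, and in the γδ gate 9.10, 7.92, 5.52 and 7.21 CPM. The ILC2 gate held 4 Foxp3 UMIs in 2 cells, with 11.4 CPM in Control 2, 21.1 CPM in hucMSC-Exo 2 and 0 in Control 1 and hucMSC-Exo 1, where 3 UMIs would give 35.0 and 7.39 CPM. The lowest CD4 value thus lay above the highest value of every other gate. On the log2 scale the CD4 gate exceeded the γδ gate by 4.66 ± 0.30 (SE, adjusted p = 4.01e-10), the ILC2 gate by 5.02 ± 0.55 (adjusted p = 3.01e-06) and the CD8 gate by 1.81 ± 0.34 (adjusted p = 0.00225), by edgeR's quasi-likelihood test with the library as a block and Benjamini-Hochberg adjustment over 4763 genes. The call against the CD8 gate was lost without Control 2 (1.44, adjusted p = 0.0879). The CD8 gate stood above the γδ gate (γδ minus CD8, -2.85 ± 0.46, adjusted p = 7.87e-05), and the ILC2 and γδ gates did not differ past the threshold (ILC2 minus γδ, -0.36 ± 0.90, adjusted p = 0.859, 95% interval -2.12 to 1.40).

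Without any gate, 252 of the 6443 cells (3.91%) held a Foxp3 UMI, with 28 and 98 cells in Control and 55 and 71 cells in hucMSC-Exo. The CD4 gate held 110 of them and 106 were T cells that no T cell gate took, while 17 lay in the γδ gate, 10 in the CD8 gate, 2 in the ILC2 gate and 7 in none of these. No Foxp3 UMI was found in 788 neutrophil gate cells, which allows a share of up to 0.381%, nor in 789 macrophage gate cells, which allows up to 0.380%. Both limits cover counting error only and are for cells with a UMI, not for cells that make Foxp3, since of the CD4 gate cells with a Foxp3 UMI only 38.3% ± 9.83 still held one when thinned to 1000 UMIs and 63.0% ± 10.7 when thinned to 2000 (mean ± SD, n = 4 libraries). The neutrophil gate was shallower, with a median of 1825 to 2214 UMIs per cell against 4179 to 5796 in the CD4 gate. Of the 17 cells in the γδ gate, 17 held Ikzf2, 16 held Ctla4 and 14 held Trac, which 20.1% of all γδ gate cells held. Their median was 7831 UMIs against 3831 in the whole gate, and 11 of the 17 were among the 10% of cells with the highest doublet scores, against 7.48% of the gate. In the CD8 gate 3 cells held 17 of the 37 Foxp3 UMIs.

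Ikzf2, a zinc finger factor that many regulatory T cells of thymic origin carry, had the same leading gate. It was counted at 657, 662, 828 and 589 CPM in the CD4 gate. The other gates lay lower in every library, between 117 and 280 CPM in ILC2, 150.5 and 179 CPM in γδ and 168 and 417 CPM in CD8 cells. The log2 difference of the CD4 gate was 1.57 ± 0.21 against ILC2, 2.09 ± 0.19 against γδ and 1.49 ± 0.21 against CD8 cells (SE, edgeR adjusted p = 3.84e-05, 3.60e-08 and 0.000175). The ranges of the other gates overlapped one another. The lower level in γδ than in CD8 cells (-0.60 ± 0.21, adjusted p = 0.0474) passed the threshold in the fit as designed and in 2 of 13 alternative fits. Ikzf2 was also counted at 125 to 495 CPM in natural killer gate cells.

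Ctla4, the inhibitory receptor, showed a wide gap between the CD4 gate and the rest. Its level in the CD4 gate was 391, 620, 596 and 669 CPM in this order. It was 152, 99.0, 181 and 168 CPM in the CD8 gate and 13.4, 18.3, 15.9 and 23.4 CPM in the γδ gate. The ILC2 gate held 0, 17.1, 9.85 and 127 CPM, and in hucMSC-Exo 2 all 12 of its UMIs were in 1 cell. CD4 cells exceeded CD8 cells by 1.90 ± 0.30 on the log2 scale (edgeR adjusted p = 0.000634), ILC2 by 4.34 ± 0.41 (adjusted p = 4.89e-07) and γδ cells by 5.06 ± 0.31 (adjusted p = 2.45e-10). ILC2 and γδ cells did not differ past the threshold (0.72 ± 0.54, adjusted p = 0.431, 95% interval -0.34 to 1.78). The γδ minus CD8 difference was -3.16 ± 0.35 (adjusted p = 1.29e-06). The ILC2 minus CD8 difference was -2.44 ± 0.48 (adjusted p = 0.00218), a call lost without hucMSC-Exo 1 (-1.69, adjusted p = 0.0838).

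Icos, the costimulatory receptor, was the exception, since its mean level was highest in ILC2. It was 1493, 1388, 1852 and 1550 CPM in the ILC2 gate and 1071, 1292, 1353 and 1065 CPM in the CD4 gate. The ILC2 range began above the highest CD4 value, yet the CD4 minus ILC2 difference of -0.45 ± 0.29 on the log2 scale did not pass the threshold (edgeR adjusted p = 0.416, 95% interval -1.03 to 0.12). ILC2 exceeded γδ cells by 1.80 ± 0.30 (adjusted p = 0.000159) and CD8 cells by 1.26 ± 0.31 (adjusted p = 0.0127), the latter call being lost without Control 2 (1.20, adjusted p = 0.0856). CD4 cells exceeded γδ cells by 1.35 ± 0.29 (adjusted p = 0.00109). Against CD8 cells, at 583, 503, 1085 and 519 CPM, their difference of 0.80 ± 0.30 missed the threshold (adjusted p = 0.139) and passed it without Control 1 (0.82, adjusted p = 0.0371). In the γδ gate Icos was 137 CPM in Control 1 and 533, 592 and 811 CPM in the other 3 libraries.

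Il2ra, the high-affinity chain of the interleukin 2 receptor, was the member whose levels in the CD4 and γδ gates overlapped. CD4 cells held 186, 427, 443 and 368 CPM and γδ cells 94.1, 386, 267 and 450 CPM in this order. These ranges overlapped, and the log2 difference of 0.39 ± 0.22 did not pass (edgeR adjusted p = 0.205, 95% interval -0.05 to 0.83), except without hucMSC-Exo 2 (0.64, adjusted p = 0.0384). The level was 152, 188, 148 and 94.9 CPM in ILC2 and 47.9, 84.4, 97.4 and 109 CPM in CD8 cells. CD4 cells exceeded ILC2 by 1.22 ± 0.28 (adjusted p = 0.00562) and CD8 cells by 2.03 ± 0.29 (adjusted p = 0.000247), and γδ cells exceeded CD8 cells by 1.64 ± 0.29 (adjusted p = 0.000202). The call against ILC2 was lost without hucMSC-Exo 1 (1.08, adjusted p = 0.0964). The lower level in ILC2 than in γδ cells (-0.83 ± 0.27, adjusted p = 0.0397) was called in 7 of 13 alternative fits. It was lost without Control 2, hucMSC-Exo 1 or hucMSC-Exo 2 (-0.80, -0.84 and -0.47).

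Tnfrsf4 and Tnfrsf18, the costimulatory receptors of the tumour necrosis factor family, both led in CD4 cells but differed in the other gates. Tnfrsf4 was 573, 1073, 1034 and 1157 CPM in the CD4 gate, and 139 CPM or less in every library of the other gates, with 0 in the ILC2 of Control 1. Tnfrsf18 was 368, 726, 509 and 691 CPM in CD4 cells, 70.0, 377, 399 and 285 CPM in ILC2, 144 to 180 CPM in CD8 cells and 67.6 to 118 CPM in γδ cells. For Tnfrsf4 the CD4 gate lay above all others without overlap, whereas the ILC2 range of Tnfrsf18 reached into the CD4 range. Within each library Tnfrsf18 was nevertheless higher in CD4 cells than in ILC2.

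The CD4 gate exceeded ILC2 by 4.06 ± 0.40 on the log2 scale for Tnfrsf4 (edgeR adjusted p = 7.09e-07) and by 0.90 ± 0.27 for Tnfrsf18 (adjusted p = 0.0372). The Tnfrsf18 call was lost without Control 2 (0.91), hucMSC-Exo 1 (1.20) or hucMSC-Exo 2 (0.77). ILC2 exceeded γδ cells by 1.72 ± 0.28 for Tnfrsf18 (adjusted p = 0.000153), while the Tnfrsf4 difference of 1.31 ± 0.48 missed the threshold (adjusted p = 0.0680) and passed it without Control 1 (1.67, adjusted p = 0.0142). CD4 cells exceeded CD8 cells for both, by 3.22 ± 0.36 (adjusted p = 1.83e-05) and 1.75 ± 0.29 (adjusted p = 0.000818).

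**Figure D1:**
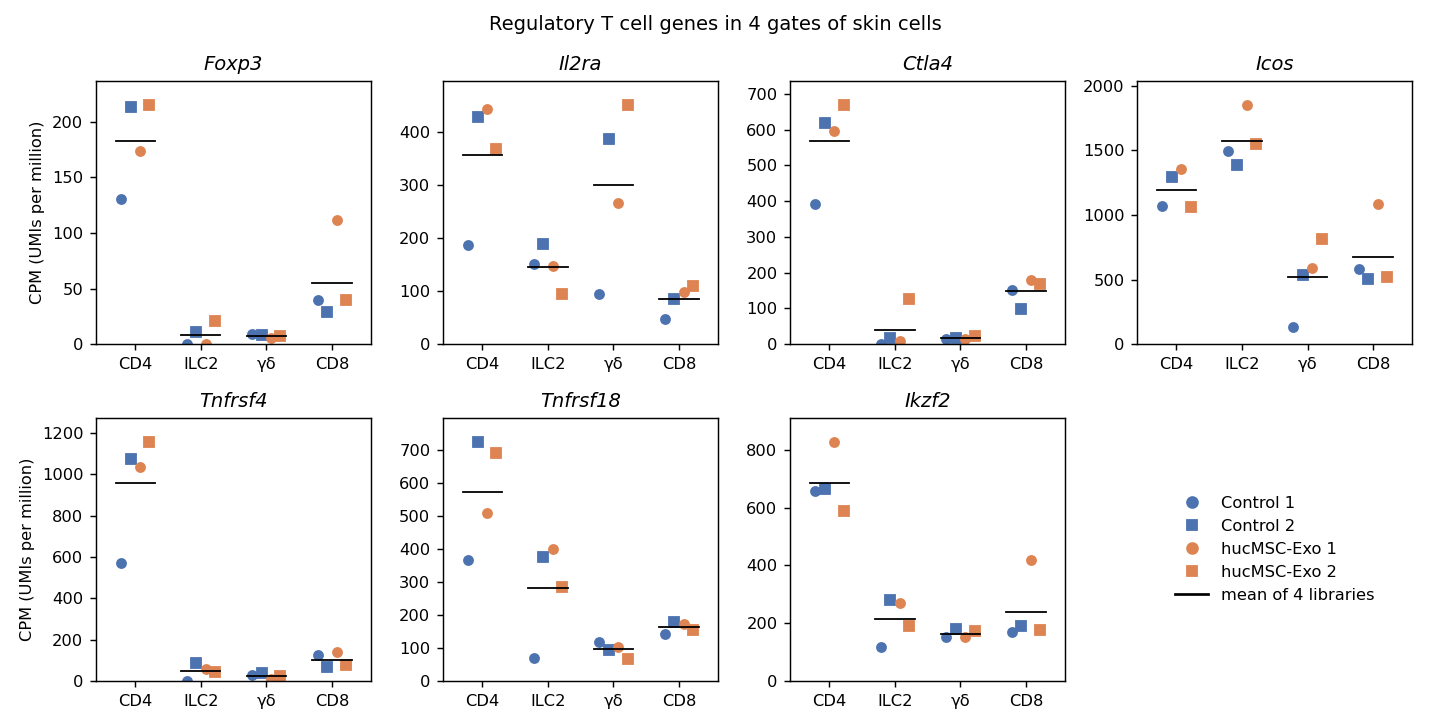
Level of each of the 7 genes (y axis, CPM) in the CD4, ILC2, γδ and CD8 gates (x axis), with 1 point per library, coloured by group, and a line at the mean of the 4 libraries. Foxp3, Ctla4, Tnfrsf4 and Ikzf2 lie highest in every CD4 sum, Icos is highest in ILC2, and Il2ra overlaps between CD4 and γδ cells.

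Read as a set, 6 of the 7 genes were called higher in CD4 cells than in ILC2, where 5.08% of the 4763 genes tested were called higher and 11.3% in either direction, and the remaining gene was Icos. Likewise 6 of 7 were higher in CD4 than in γδ cells (15.6% of all genes higher, 31.5% in either direction) with Il2ra as the exception, and 6 of 7 were higher in CD4 than in CD8 cells (3.23% higher, 6.13% in either direction) with Icos as the exception. The median log2 difference of the 7 genes was 1.57, 2.62 and 1.81 in these comparisons, against 0.01, 0.02 and -0.02 over all genes. Between ILC2 and γδ cells 3 of 7 were called (17.8% of all genes), with Icos and Tnfrsf18 higher and Il2ra lower in ILC2. Between ILC2 and CD8 cells 3 of 7 were called (8.34%), with Icos higher and Ctla4 and Foxp3 lower in ILC2, the Foxp3 call being lost without hucMSC-Exo 1 (-1.64, adjusted p = 0.189). Between γδ and CD8 cells 6 of 7 were called (21.9%), with Il2ra higher in γδ cells and Ctla4, Foxp3, Ikzf2, Tnfrsf18 and Tnfrsf4 lower. The Tnfrsf18 call (-0.87 ± 0.30, adjusted p = 0.0418) was lost without Control 2 (-0.78), hucMSC-Exo 1 (-0.86) or hucMSC-Exo 2 (-0.75), and that of Ikzf2 without Control 1 (-0.65), Control 2 (-0.70) or hucMSC-Exo 1 (-0.22). When the cells with a Foxp3 UMI were taken out of the ILC2, γδ and CD8 gates, an alternative chosen after the data had been seen, 3 of 7 were called in this last comparison.

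The CD4 gate also had the highest mean share of cells with a UMI for 6 of the 7 genes after each cell was thinned to 1000 UMIs. The share of CD4 gate cells with a UMI was then 11.6% ± 4.54 for Foxp3, 23.5% ± 9.34 for Il2ra, 34.0% ± 3.54 for Ctla4, 54.3% ± 5.86 for Icos, 46.3% ± 10.5 for Tnfrsf4, 38.8% ± 3.99 for Tnfrsf18 and 32.3% ± 4.67 for Ikzf2 (mean ± SD, n = 4 libraries, 355 cells, with 1 shallower cell left out). ILC2 led for Icos only, with 61.3% ± 9.72 of 151 cells, and at 2000 UMIs the CD4 gate led for Icos as well. In γδ cells the share was 16.7% ± 8.16 for Il2ra and 22.9% ± 11.2 for Icos but 0.742% ± 0.51 for Ctla4 and 0.946% ± 0.69 for Tnfrsf4. In the neutrophil gate, thinned alike, shares were 0 for Foxp3, Ctla4, Icos and Ikzf2, and the highest was 1.97% ± 1.36 for Tnfrsf18. Before thinning the CD4 shares ran from 21.6% to 33.7% for Foxp3, from 57.3% to 65.2% for Ctla4 and from 89.0% to 92.4% for Icos over the libraries.

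Within the CD4 gate, cells with a Foxp3 UMI were set against cells without one. A cell without a Foxp3 UMI may still express the gene, so the second class is not a class of cells that lack it. Over all libraries 46.7% of the cells without one held a Ctla4 UMI and 25.6% an Ikzf2 UMI. How many of them make Foxp3 was not tested. Control 1 had 8 cells with a Foxp3 UMI, below the minimum of 10, so the test used Control 2, hucMSC-Exo 1 and hucMSC-Exo 2. Foxp3 itself, which made the split, was left out. The median depth in these libraries was 5808, 5897 and 4464 UMIs in cells with a Foxp3 UMI against 4690, 3754 and 4932 UMIs in cells without one. Cells with Foxp3 were thus deeper in 2 libraries and shallower in hucMSC-Exo 2, and the part of depth in the result was not tested. Ikzf2 was 1560, 1691 and 1620 CPM in the cells with Foxp3 and 124, 312 and 114 CPM in those without, in the order of libraries just given. Ctla4 was 1109, 1127 and 1244 CPM against 326.5, 278 and 405 CPM, and Il2ra was 742, 881 and 651 CPM against 238, 181 and 238 CPM. For these 3 genes the classes did not overlap over these libraries. The same held for Tnfrsf4, Tnfrsf18 and Icos, whose values follow.

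The log2 difference was 3.16 ± 0.23 for Ikzf2 (SE, edgeR adjusted p = 3.37e-08), 1.66 ± 0.18 for Ctla4 (adjusted p = 6.67e-06) and 1.64 ± 0.21 for Il2ra (adjusted p = 2.11e-05). Tnfrsf4 rose from 727, 784 and 968 CPM to 1650, 1451 and 1569 CPM, a difference of 0.80 ± 0.18 (adjusted p = 0.00531) that was lost without Control 2 (0.65, adjusted p = 0.320). Tnfrsf18 was 1133, 641 and 861 CPM against 482.7, 429.7 and 613 CPM, a difference of 0.66 ± 0.19 (adjusted p = 0.0340). This difference was called in 7 of 13 alternative fits and lost without Control 2 (0.39, adjusted p = 0.623). Among the 7, the fit without Control 1 repeats the designed fit, which had already left that library out. Icos, at 1660, 1374 and 1461 CPM against 1072, 1340 and 883 CPM, did not pass (0.34 ± 0.18, adjusted p = 0.284, 95% interval -0.0014 to 0.69). Thus 5 of the 6 genes tested were higher in cells with Foxp3, where 4.98% of 3453 genes were called higher and 9.47% in either direction.

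**Figure D2:**
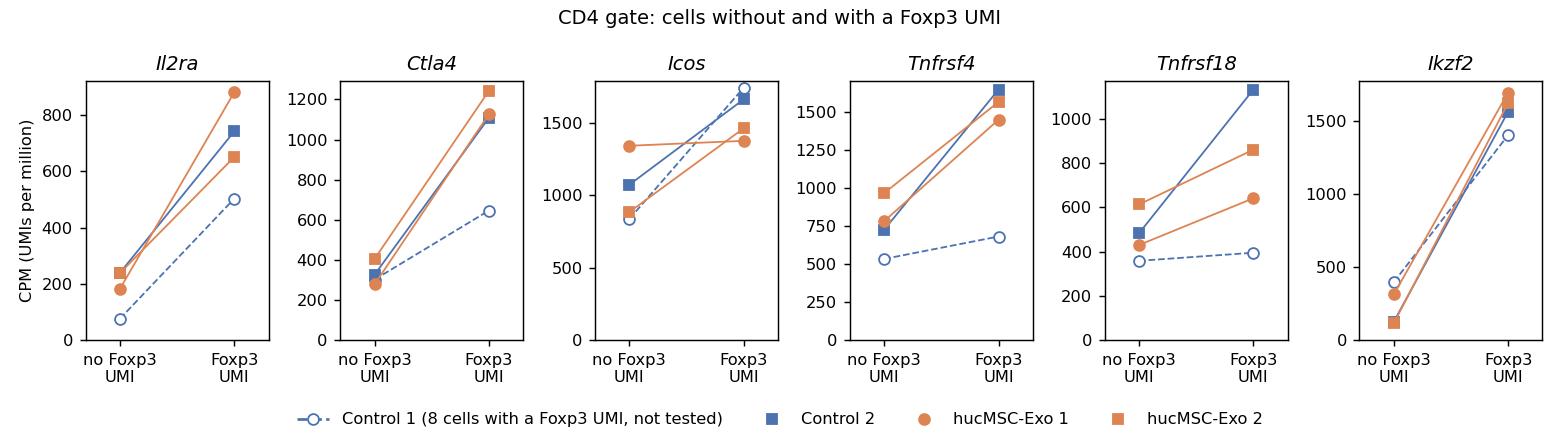
Level of 6 genes (y axis, CPM) in CD4 gate cells without and with a Foxp3 UMI (x axis), with a line per library. Every line ends higher at the right, with wide gaps for Ikzf2, Ctla4 and Il2ra and the narrowest for Icos in hucMSC-Exo 1, and the dashed line of Control 1 rests on 8 cells with Foxp3 and was not tested.

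Of 30 other genes linked to regulatory T cells, 24 could be tested in this split, and 12 were higher and 1 was lower in the cells with Foxp3. Their median log2 difference was 0.98, against 0.00 over all genes. The higher genes included Ikzf4 (Eos, a relative of Ikzf2), at 150, 197 and 204 CPM against 6.01, 37.9 and 17.6 CPM (3.24 ± 0.37, edgeR adjusted p = 8.02e-06), and Lrrc32, which holds latent TGF-β at the surface, at 63.5, 49.3 and 82.9 CPM against 2.00, 8.43 and 5.87 CPM (3.57 ± 0.59). Itgae, the integrin chain that binds E-cadherin of the epidermis, rose from 62.1, 101 and 46.9 CPM to 357, 352 and 332 CPM (2.25 ± 0.24). Klrg1, a receptor of differentiated effector cells, differed by 2.84 ± 0.32, and Penk, the precursor of enkephalin, by 2.40 ± 0.28. Prdm1, Maf, Cd83, Ebi3, Itgb8, Izumo1r and Tnfrsf9 were the other higher genes, and the chemokine receptor Cxcr6 had a difference of -1.60 ± 0.20.

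Among 10 genes of naive and conventional T cells, 9 were tested and 3 were lower in the cells with Foxp3. Cd40lg, by which helper T cells activate antigen-presenting cells, was 3.34, 21.1 and 0 CPM against 164, 147 and 106 CPM (-4.45 ± 0.51, edgeR adjusted p = 8.27e-06). Tcf7, a factor of naive and memory cells, was 10.0, 14.1 and 25.5 CPM against 162, 152 and 90.9 CPM (-3.26 ± 0.41), and Satb1 was also lower (-1.22 ± 0.29). Klf2, a factor of quiescent T cells, was higher by 1.03 ± 0.29. None of the 8 tested genes of the interleukin 2 receptor pathway, out of 12 listed, was called in this split.

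The γδ gate joins epidermal cells, which sit among keratinocytes, and cells that make interleukin 17. Icos, Il2ra and Tnfrsf18 differed between them. As designed, cells with Trdv4 or Tcrg-V5 and no gene of the interleukin 17 side (among them Cd163l1, Il17a, Il17f, Il23r and Tcrg-V6) formed the epidermal side with 833 cells and the reverse formed the interleukin 17 side with 192 cells, while 525 cells held both and 122 neither. Trdv4 is a δ chain segment that both kinds of cell can use, so the sides were also drawn with Tcrg-V5 alone, after the data had been seen, which gave 157 and 686 cells. Icos was 353, 937, 1242 and 1029 CPM on the interleukin 17 side, in the usual order of libraries, and 56.3, 42.9, 78.5 and 36.2 CPM on the epidermal side. Il2ra was 97.1, 481, 432 and 326 CPM against 50.6, 85.7, 25.7 and 77.4 CPM. Tnfrsf18 went the other way, with 26.5, 66.9, 46.8 and 64.5 CPM on the interleukin 17 side and 151, 102, 152 and 133 CPM on the epidermal side. None of the 3 genes overlapped between the sides.

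The log2 difference of the interleukin 17 side was 4.16 ± 0.26 for Icos (SE, edgeR adjusted p = 1.22e-09), 2.66 ± 0.31 for Il2ra (adjusted p = 2.00e-06) and -1.15 ± 0.28 for Tnfrsf18 (adjusted p = 0.00339). Each of these was also called in all 13 alternative fits, the sides by Tcrg-V5 alone included. Ikzf2 (0.36 ± 0.21, adjusted p = 0.216, 95% interval -0.05 to 0.78) and Tnfrsf4 (-0.11 ± 0.65, adjusted p = 0.920, 95% interval -1.39 to 1.16) did not pass, and Foxp3 and Ctla4 were too low to be tested. In all 3 of 5 tested genes were called, where 32.9% of 5130 genes were. Foxp3 was counted 21 times on the epidermal side and 14 times on the interleukin 17 side as designed.

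**Figure D3:**
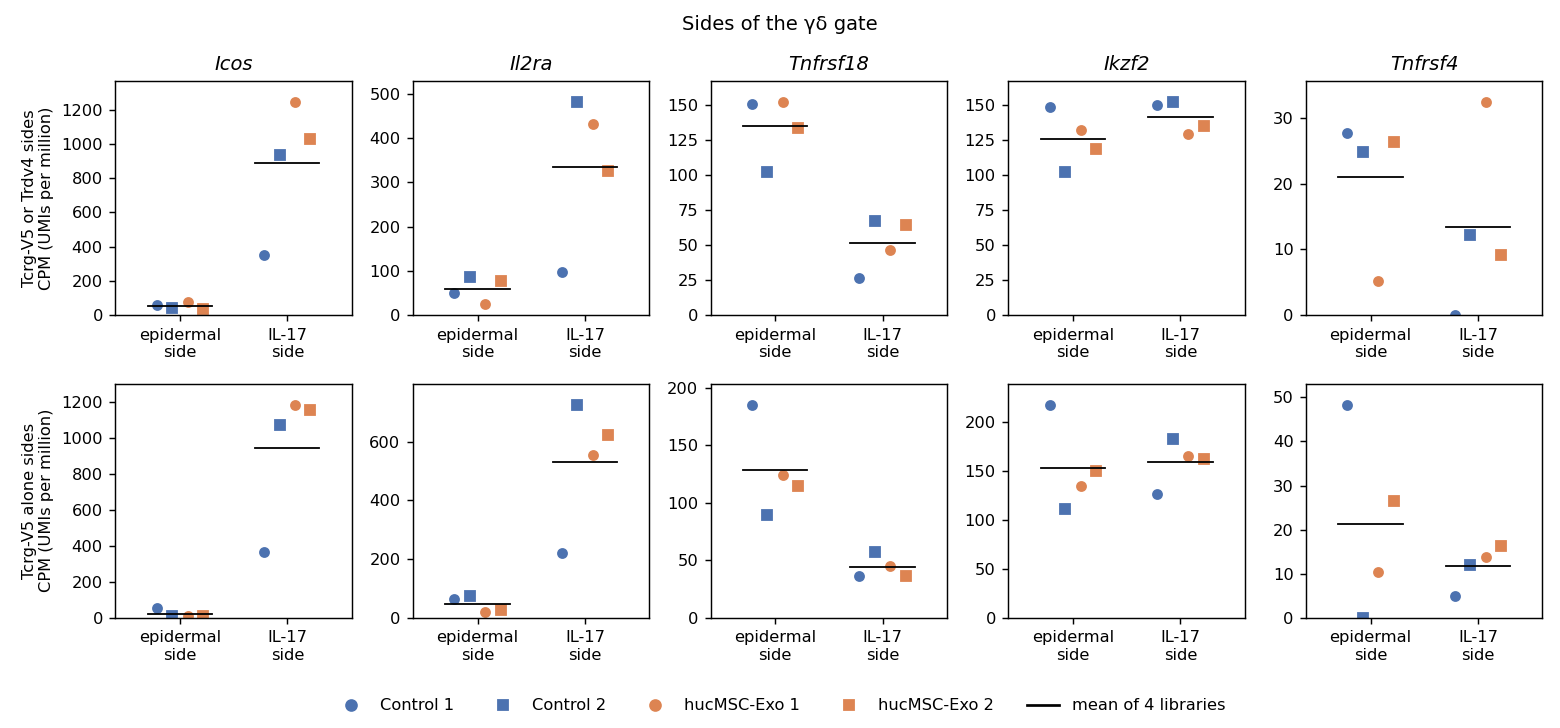
Level of 5 genes (y axis, CPM) on the epidermal and the interleukin 17 side of the γδ gate (x axis), with 1 point per library and a line at the mean, for the sides as designed (upper row) and by Tcrg-V5 alone (lower row). Icos and Il2ra lie higher and Tnfrsf18 lower on the interleukin 17 side in both rows, and Control 1 has the lowest Icos and Il2ra of that side.

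No member was called between hucMSC-Exo and Control in any gate by edgeR's quasi-likelihood test, and none had an unadjusted p under 0.05. In the CD4 gate 0 of 7 were called, where 0 of 4871 genes were (0%), and 140 genes had an unadjusted p under 0.05 and DESeq2 called 0. The log2 differences there, hucMSC-Exo minus Control, were 0.12 ± 0.30 for Foxp3 (SE, 95% interval -0.46 to 0.71), 0.33 ± 0.35 for Il2ra, 0.29 ± 0.24 for Ctla4, 0.02 ± 0.17 for Icos, 0.38 ± 0.27 for Tnfrsf4, 0.10 ± 0.32 for Tnfrsf18 and 0.09 ± 0.20 for Ikzf2. Control 1 was the lowest library for Foxp3, Il2ra, Ctla4, Tnfrsf4 and Tnfrsf18, and without it the differences of Foxp3, Il2ra, Icos and Tnfrsf18 changed sign (-0.14, -0.10, -0.12 and -0.29). In this gate the CPM of the groups overlapped for all 7 genes, while 31.7% of the genes tested did not overlap.

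Foxp3 was found in 21.6% of 37 CD4 gate cells of Control 1 (95% Clopper-Pearson interval 9.83% to 38.2%) and in 32.4% of 145 cells of Control 2 (24.9% to 40.7%). It was found in 29.3% of 82 cells of hucMSC-Exo 1 (19.7% to 40.3%) and in 33.7% of 92 cells of hucMSC-Exo 2 (24.2% to 44.3%). The intervals cover counting error only, and all 4 overlap. The mean was 31.5% ± 3.13 in hucMSC-Exo and 27.0% ± 7.63 in Control (SD, n = 2), and the difference of 4.46 percentage points had p = 0.667 by an exact two-sided permutation test, whose smallest possible p is 0.333. Without Control 1 the difference was -0.93 percentage points.

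In the γδ gate Icos had the widest difference between the groups, at 137 and 533 CPM in Control and 592 and 811 CPM in hucMSC-Exo, but 1.13 ± 0.59 on the log2 scale did not pass (edgeR adjusted p = 0.928, 95% interval -0.02 to 2.28). Control 1 stood apart, and without Control 2, which leaves it as the only Control library with its spread taken from the others, Icos and Il2ra were both called (2.57 and 2.14, adjusted p = 1.72e-11 and 1.13e-07), as were 459 genes in all. Icos was also called without a filter on low counts (1.14, adjusted p = 0.0108). Without Control 1 the Icos difference was 0.42 (adjusted p = 1) and that of Il2ra was -0.08. The makeup of the gate moved alongside. The interleukin 17 side as designed held 7.32% and 9.72% of γδ gate cells in Control and 14.3% and 13.7% in hucMSC-Exo, without overlap of the groups. By Tcrg-V5 alone it held 23.0% in Control 1, 41.1% in Control 2, 39.0% in hucMSC-Exo 1 and 57.6% in hucMSC-Exo 2. There the groups overlapped. Within the side by Tcrg-V5 alone Icos was 368, 1071, 1184 and 1158 CPM. The part of this makeup in the difference was not tested.

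Tnfrsf4 in the γδ gate was 27.9 and 36.6 CPM in Control and 8.58 and 22.5 CPM in hucMSC-Exo (-0.90 ± 0.44, edgeR adjusted p = 0.928), and this difference turned to 0.57 when γδ cells with a Foxp3 UMI were left out. Over the gates, the CPM of the groups did not overlap for 3 of 7 members tested in the γδ gate (Foxp3, Icos, Tnfrsf4), 2 of 4 in ILC2 (Il2ra, Icos) and 2 of 6 in the CD8 gate (Il2ra, Ctla4). The shares over all genes tested were 34.7%, 32% and 34.1%. In the ILC2 gate 0 of 1841 genes and in the γδ gate 0 of 8828 were called (0% in each), with 64 and 381 at an unadjusted p under 0.05 and 1 gene each called by DESeq2. In ILC2, Tnfrsf18 was 70.0 and 377 CPM in Control and 399 and 285 CPM in hucMSC-Exo, a log2 difference of 0.55 ± 0.60 (adjusted p = 0.999) that was -0.05 without Control 1. Without Control 2 it was called (2.28, adjusted p = 0.0152), but Control is then 1 library of 15 ILC2 gate cells, assumed to vary like the hucMSC-Exo libraries. In the CD8 gate 2 of 2375 genes were called (0.0842%), Gzmc, a granzyme, and Lyz2, a lysozyme of myeloid cells, both higher in hucMSC-Exo and named after their values were seen.

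The B7 ligands and Tnfsf4 had their highest mean levels in the mature dendritic gate, which held 3, 15, 3 and 9 cells in the usual order of libraries, fewer than 10 in 3 of them. Cd86, a B7 ligand of Ctla4 and Cd28, was 169 to 202 CPM in macrophage gate cells and 266 to 707 CPM in the 30 mature dendritic gate cells, and 51.4 CPM or less in the 4 lymphoid gates. Cd80, the other B7 ligand, was 51.4 to 148 CPM in mature dendritic cells and 35.3 to 69.3 CPM in neutrophils. Within CD4 cells 14 of 18 Cd80 UMIs were in cells with Foxp3. Tnfsf4, the ligand of Tnfrsf4, gave 17 UMIs in mature dendritic cells (212, 22.4, 411 and 0 CPM, where 212 and 411 CPM rest on 3 cells each) and 10 in the 4 lymphoid gates together. Tnfsf18, the ligand of Tnfrsf18, was near the floor, with 17 UMIs in macrophages and 0 in the CD4 and CD8 gates. Icosl was 51.4 CPM or less in every gate shown here.

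**Figure D4:**
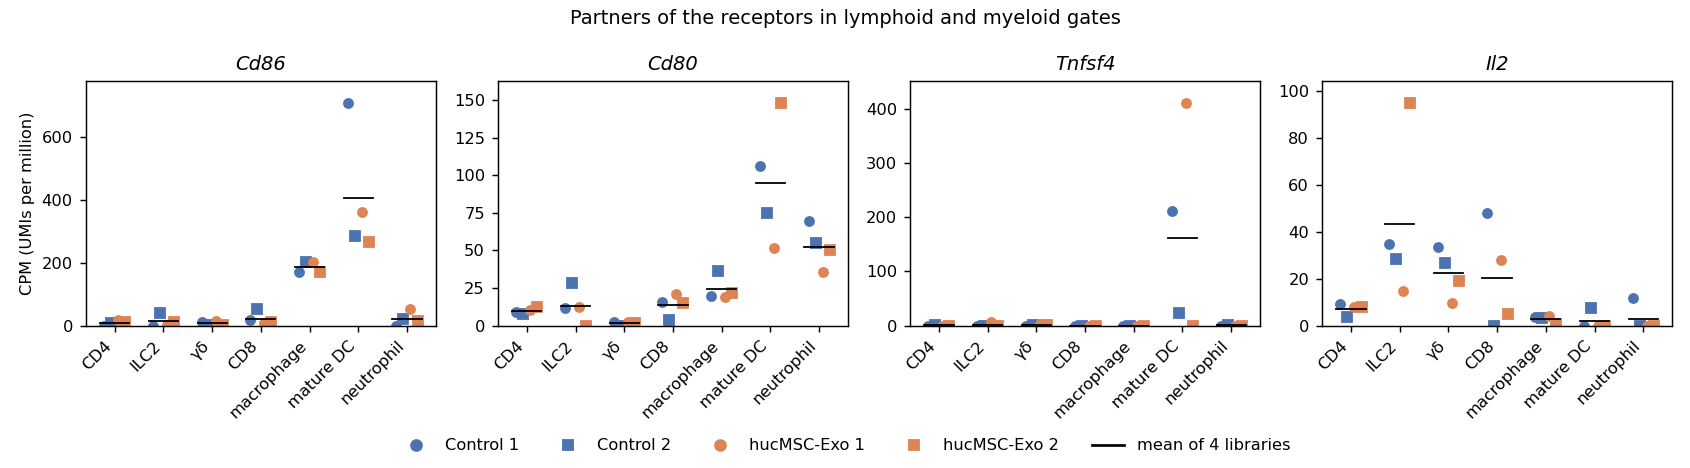
Level of Cd86, Cd80, Tnfsf4 and Il2 (y axis, CPM) in 4 lymphoid and 3 myeloid gates (x axis), with 1 point per library and a line at the mean. Cd86 and Tnfsf4 are highest in mature dendritic cells, which number 30 in all, and Il2 is spread over ILC2, γδ and CD8 cells.

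Il2, the cytokine that Il2ra binds, was 3.76 to 9.31 CPM in CD4 cells, 9.81 to 33.4 CPM in γδ cells and 14.8 to 94.9 CPM in ILC2, and it was called lower in CD4 cells than in ILC2. Of the 12 genes of the interleukin 2 receptor pathway, 10 were tested between gates, where 31.5%, 11.3% and 6.13% of all genes were called between CD4 cells and γδ cells, ILC2 and CD8 cells. In CD4 cells against γδ cells Stat5b, a signal transducer of the receptor, was higher, and Il2rb, the β chain of the receptor, Jak1, a kinase bound to it, and Bcl2, a survival factor, were lower. In CD4 cells against ILC2, Stat5a and Stat5b were higher and Bcl2, Il2 and Il2rb lower. Against CD8 cells only Bcl2 was called, as lower in CD4 cells. Between the sides of the γδ gate Cish, Stat5a and Stat5b were higher on the interleukin 17 side, with Il2ra, and Bcl2, Il2rg, Jak1 and Socs3 were lower. Between the groups 0 genes of this list were called in any gate.

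Of the 30 other genes linked to regulatory T cells, 20 were tested between gates. Against CD8 cells 9 were higher in CD4 cells and 0 lower (median log2 difference 1.14, against -0.02 over all genes), with Penk, Ikzf4, Klrg1 and Il10 among them. Of all genes tested 6.13% were called in either direction there. Against γδ cells 8 were higher and 3 lower, where 31.5% of all genes were called, and against ILC2 6 were higher and 4 lower, where 11.3% were, with Itgae and Cxcr6 lower in CD4 cells in both. Il10 in ILC2 was 0 CPM in 3 libraries and 190 CPM, or 18 UMIs, in hucMSC-Exo 2.

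The members also differed in how alike their levels ran over the 16 sums of 4 gates and 4 libraries, given here as a description without a test, since sums of 1 library or 1 gate share their source. On log2 CPM, Pearson's r was 0.96 between Foxp3 and Ctla4, 0.90 between Ctla4 and Tnfrsf4 and 0.91 between Tnfrsf4 and Ikzf2. It was 0.16 between Foxp3 and Il2ra and 0.10 between Foxp3 and Icos. Among 4727 other genes, Cd5, an inhibitory receptor of T cells, ran most like Foxp3 (0.96), followed by Sdcbp2 (0.90), and it was also close to Ctla4 (0.93) beside Zfp53 (0.95). Cd5 was 237 to 366 CPM in CD4, 55.9 to 165 CPM in CD8, 6.68 to 18.0 CPM in γδ and at most 11.4 CPM in ILC2 cells. Il2ra ran most like Bcl2l1, a survival factor of the Bcl2 family (0.91), and Ndfip1 (0.89), and Icos like Timp2 (0.90) and Cd84 (0.89).

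Tnfrsf18 ran like Raph1 (0.90) and Ass1 (0.88), Ikzf2 like Arl5a (0.91) and Ass1 (0.90), and Tnfrsf4 like Sdf4 (0.91) and Vps54 (0.89). Sdf4 ends 232 bases before Tnfrsf4 on the same strand of chromosome 4 in the GENCODE annotation of GRCm38, and it was 359 to 512 CPM in CD4 cells and 93.3 to 244 CPM in the other gates. Whether reads of these 2 neighbours were kept apart was not tested.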

How the data were processed

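Droplet single-cell RNA sequencing was analysed in 4 libraries of mouse skin, 1 per mouse, 2 titled Control and 2 titled hucMSC-Exo. The deposited values are raw UMI counts per gene and cell, which the authors made with Cell Ranger 6.1.2 and the mm10 genome without normalization. The kept cells held 4779405 to 11243740 UMIs per library (952 to 2074 cells, median 3747 to 4392 UMIs), and at most 2 cell barcodes were shared by any pair of libraries. A cell needed 200 to 3000 genes and a mitochondrial share of 10% or less, and lymphoid gate cells with more than 3 UMIs of myeloid genes were left out. Doublets were not removed before the gates, and an alternative left out the 10% highest Scrublet scores (scanpy 1.11.5). In the other gates, neutrophils needed Csf3r and at least 3 S100a9 UMIs, macrophages Csf1r and at least 3 C1q UMIs, natural killer cells Ncr1 and mature dendritic cells Ccr7 and Fscn1, all without CD3.

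UMIs were summed per library and gate and tested with edgeR 4.0.16 (quasi-likelihood, TMM, filterByExpr, Benjamini-Hochberg at 0.05), with the library as a block between gates and sides and without a block between groups. A library needed 10 cells in a class. Cells are not replicates, so p-values measure the spread between libraries. DESeq2 1.42.0, other filters and leaving out each library were the alternatives, and scripts were tested on simulated data. An exact permutation test compared shares. Thinning drew 1000 UMIs per cell. Named genes were the 7 members, 4 gene lists and the 2 genes most like each member. Members and lists were chosen with earlier results of these data known. Promoters came from RefSeq. Values of some listed genes are not reported here.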

Additional observations from a re-analysis of the deposited data

Results flagged for a closer look

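A Foxp3 UMI was counted in 106 of 611 T cells that lay outside the CD4, CD8 and γδ gates and so entered no comparison, against 0 of 788 neutrophil gate cells. These T cells held a CD3 UMI but no marker of the gates or markers of more than 1 of them. Of the 106 cells, 97 held Ctla4, 93 held Ikzf2 and 89 held Trac. Per library Foxp3 was at 59.2 and 139 CPM in Control and 105 and 97.1 CPM in hucMSC-Exo in these cells, below the CD4 gate in every library.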

How the results depend on the processing

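Over 12 comparisons, 894 of 990 values of single members under the fits run kept their direction and side of the threshold, 44 lost a call, 14 gained one and 38 changed sign, and the causes were not tested except where the construction of the alternative shows one. Some of these fits repeat the designed fit by construction, and their values count among the 894. Examples are at least 2 CD3 UMIs between the groups in ILC2, whose gate holds no CD3, and leaving out Control 1 in the Foxp3 split. Precision is limited by 15 to 87 ILC2 and 27 to 56 CD8 cells per library.

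Leaving out 1 library at a time gave 276 to 483 genes called between CD4 and ILC2 (540 with all), 994 to 1417 between CD4 and γδ (1500), 73 to 247 between CD4 and CD8 (292), 507 to 862 between ILC2 and γδ (849), 197 to 335 between ILC2 and CD8 (397) and 677 to 973 between γδ and CD8 (1044), with fewer samples in each fit. It gave 112 to 461 genes (327) and 3 to 5 members in the Foxp3 split, and 1 to 4 members between ILC2 and CD8, the lowest without hucMSC-Exo 1. Between the groups it gave 3 to 22 genes in the CD4 gate, 17 to 37 in ILC2, 0 to 459 in γδ and 0 to 32 in CD8 cells, with 0 to 1 member in ILC2 and 0 to 2 in γδ. Group differences in the CD4 gate ran from -0.14 to 0.61 for Foxp3, -0.10 to 1.14 for Il2ra, -0.13 to 0.20 for Icos, -0.29 to 0.74 for Tnfrsf18 and -0.14 to 0.30 for Ikzf2, and in the γδ gate from -0.11 to 0.32 for Ikzf2, -0.077 to 2.14 for Il2ra and -0.50 to 0.081 for Tnfrsf18. In ILC2 they ran from -0.046 to 2.28 for Tnfrsf18 and -0.17 to 0.99 for Ikzf2, and in CD8 cells from -0.10 to 0.91 for Icos, -0.37 to 0.64 for Tnfrsf4, -0.19 to 0.072 for Tnfrsf18 and -0.057 to 1.12 for Ikzf2. ILC2 minus γδ ran from -1.18 to 0.56 for Foxp3 and -0.52 to 1.31 for Ctla4, ILC2 minus CD8 from -0.31 to 0.15 for Ikzf2, and Tnfrsf4 between the γδ sides from -1.47 to 0.35. The difference in the Foxp3 share of the CD4 gate ran from -0.93 to 9.86 percentage points.

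Without a filter on low counts, 457 genes were called between CD4 and CD8, and between the groups 14, 33, 57 and 26 in the CD4, ILC2, γδ and CD8 gates, with 1 member (Icos in γδ). DESeq2 called 106 genes in the Foxp3 split and 1 each between the groups in ILC2 and γδ, and all deposited cells gave 212 and, in ILC2, 5, with Ctla4 in γδ at -0.18 and Tnfrsf4 in CD8 cells at -0.70. Without the highest Scrublet scores 0 genes were called in the CD8 gate between groups, and Foxp3 (ILC2 minus γδ, 0.53) and Ikzf2 (ILC2 minus CD8, 0.085) changed sign. Without a myeloid limit 1 gene was called in the CD8 gate, and with at least 2 CD3 UMIs the Icos difference in the CD4 gate was -0.0066. Leaving Foxp3 cells out of the other gates, which removes the Foxp3 UMIs by construction, gave Foxp3 differences of 0.024 (ILC2 minus γδ), 0.083 (ILC2 minus CD8) and 0.059 (γδ minus CD8), 3 members between γδ and CD8, and between the groups 0.57 for Tnfrsf4 in γδ, -0.097 for Tnfrsf4 in CD8 cells and -0.057 for Ikzf2 in ILC2. Thinned to 2000 UMIs, CD4 cells had the highest mean share for 7 of 7 members instead of 6.

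Library size without TMM moved the median log2 difference of all genes to -0.14 for ILC2 minus γδ, 0.15 for γδ minus CD8, 0.14 for the Foxp3 split, -0.23 between the γδ sides and -0.11 between groups in γδ, where Ikzf2 was then at -0.022. The split of higher and lower calls went from 242 and 298 to 285 and 246 for CD4 minus ILC2, where the majority turned, from 745 and 755 to 639 and 842 for CD4 minus γδ, from 154 and 138 to 181 and 102 for CD4 minus CD8, from 423 and 426 to 305 and 569 for ILC2 minus γδ, from 525 and 519 to 722 and 410 for γδ minus CD8, from 172 and 155 to 232 and 116 in the Foxp3 split and from 786 and 902 to 609 and 1192 between the sides.

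Same-numbered libraries share only a number, with 2 pairs whose deviations correlated at 0.10 in CD4, -0.09 in ILC2, 0.22 in γδ and -0.02 in CD8 cells. With the replicate number as a block, 4 genes instead of 2 were called between groups in the CD8 gate and 0 in the CD4, ILC2 and γδ gates. Without the library term as a block between gates, 126 genes were called between CD4 and CD8.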
